A study of Sus scrofa with 3 samples.

Results

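Visceral adipose tissue (VAT) of castrated pigs given testosterone (CMT) was compared here with that of intact pigs (IM), to see where injected testosterone left gene levels apart from the intact state. The comparison took the mRNA genes listed with at least 1 UQRPKM in both libraries. UQRPKM is a read count per gene length, set relative to the library's upper quartile of reads per gene. These genes numbered 14151 of the 22826 mRNA genes and of the 34570 genes of all types. Of the other mRNA genes, 616 reached 1 UQRPKM in one library and lay under 1 but above 0 in the other. Another 248 reached 1 UQRPKM in IM and were listed at 0 in CMT, and 300 reached it in CMT and were listed at 0 in IM. A further 1118 lay under 1 in both, and 6393 were listed at 0 in both. Just inside the limit, LOC100739008 stood at 1.57 UQRPKM in IM and 1.0 in CMT on 8 and 5 reads. Just outside it, LOC100154987 stood at 0.999 and 1.02 UQRPKM on 6 reads in each.

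All animals were male Chinese Wuzhishan miniature pigs, a small breed, between 6 and 7 months of age at the start, and all groups ate a diet rich in fat and cholesterol (HFC) for 12 weeks. IM pigs had skin incisions only and kept their testes, and pigs of the castrated group (CM) had lost them. CMT pigs were castrated and injected weekly with 10 mg/kg testosterone propionate in corn oil, an ester that releases testosterone. The paper's methods describe no injection for IM or CM pigs, so injection and oil also separate CMT from IM. The fat was retroperitoneal. Equal amounts of RNA from each animal went into 1 library per group, from 4 pigs by the paper's methods and from 4 to 6 by the labels. The 3 libraries therefore carry no replicates, so no difference was tested and the spread between pigs is unknown. CM values are given beside the others for orientation, because any ratio of CM to IM uses the same IM library.

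Steroid hormones such as testosterone act in fat largely through nuclear receptors, transcription factors that bind DNA when they hold their hormone. Fat cells also carry enzymes that convert or inactivate steroids, and aromatase in fat can turn androgen into estrogen. Visceral fat cells store triglyceride, make part of its fatty acids themselves from citrate, and release fatty acids by lipolysis. The tissue also holds endothelium, fibroblasts, macrophages and lymphocytes, and a covering of mesothelium where it faces the peritoneum.

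The reads behind each value were recovered from the UQRPKM values and on mRNA genes came to 14844063 for IM, to 13582288 for CM and to 13449107 for CMT. The 10 mRNA genes with the most reads held between 8.77% and 9.13% of them. Both libraries carried the defining genes of fat cells, with ADIPOQ, which encodes adiponectin, at 74928 UQRPKM in IM and 63873 in CMT, and PLIN1, the coat protein of the lipid droplet, at 18396 and 12504. The CMT library stood apart by genes of skeletal muscle. Without CA3, which fat also expresses, 17 of 19 measured skeletal muscle markers were at least 1.5-fold higher in CMT and none was lower. Their summed level was 1189 UQRPKM for IM, 1110 for CM and 9882 for CMT, and they held 0.0350%, 0.0346% and 0.172% of the mRNA reads. The CM library stood apart by liver genes, with ALB, the gene of serum albumin, at 2.61 UQRPKM in IM, at 2910 in CM and at 4.00 in CMT. The part of these other tissues in the ratios below was not tested. In such bulk libraries, fewer cells of a type and less RNA per cell cannot be told apart.

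Most genes lay at similar levels in CMT and IM. A gene is called higher or lower in CMT here at a ratio of at least 1.5-fold, which is 0.58 on the log2 scale. On this count 1246 of the 14151 genes were higher in CMT, which is 8.81%, and 1690 were lower, which is 11.9%. The other 11215 genes, 79.3%, lay within 1.5-fold. The median log2 ratio of CMT over IM was -0.08, and from the 5th to the 95th percentile the ratios ran from -0.96 to 0.85.

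Many of these ratios rested on few reads. An exact 95% Clopper-Pearson interval was computed for each ratio from the recovered reads. The intervals cover counting error only, and reads of amplified libraries are not independent molecules. The interval included equal levels for 501 of the higher and 529 of the lower genes. It lay wholly beyond 1.5-fold for 241 higher genes, 1.70% of those measured, and for 327 lower genes, 2.31%. The median over both libraries was 73.0 reads for genes past 1.5-fold and 592 reads for genes within it. Among genes with fewer than 50 reads over both libraries, 24.6% were higher and 27.3% lower. Among those with 5000 reads or more, 2.47% were higher and 4.53% lower. Short genes were likewise past the limit more often, at 17.2% higher and 16.7% lower under 500 bases of recovered length, against 3.42% and 5.89% from 6000 bases upward. Recovered length is the shortest that fits and can be too short where reads are few, so this trend is not separate from that of reads.

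**Figure D1:**
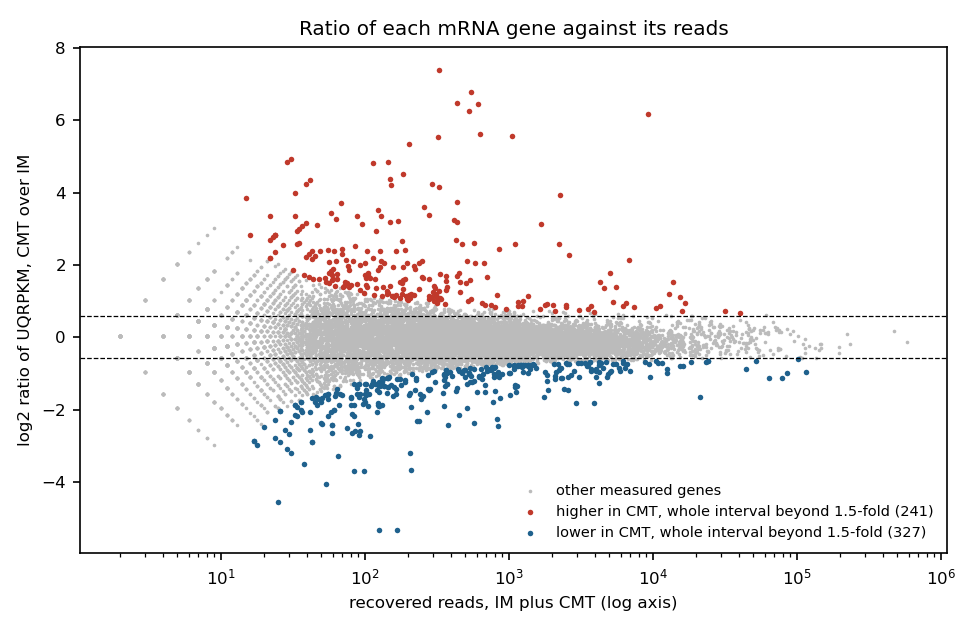
Log2 ratio of UQRPKM in CMT over IM for each measured mRNA gene (vertical axis) against its recovered reads in IM plus CMT (horizontal log axis), with dashed lines at 1.5-fold. The grey cloud of ratios narrows as reads increase, and the 241 red and 327 blue genes are those whose whole counting interval lay beyond 1.5-fold, higher and lower in CMT.

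The balance of higher and lower genes depended on how the libraries were scaled. By UQRPKM, 42.4% of the genes past 1.5-fold were the higher ones. With the libraries scaled to equal total reads on mRNA genes, every log2 ratio gained 0.11, and 56.8% of the genes past the limit were higher, 1626 against 1239 lower. Scaling by the median ratio added 0.08 and gave 53.2%, and scaling by total UQRPKM gave 47.9%. No direction is therefore read from the balance over all genes. Of 48 gene lists described here, 12 had medians between -0.11 and 0 that turned sign or reached 0 with equal total reads, among them those of steroid receptors, androgen or glucocorticoid response, beta-oxidation and glycolysis.

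Genes of steroid hormone action lay close to the intact level. From here on, a value in brackets after the levels is the log2 ratio of CMT over IM, with its 95% interval. NR3C1, the glucocorticoid receptor, stood at 207 UQRPKM in IM, at 202 in CM and at 207 in CMT. The 3 libraries were thus alike for NR3C1, with a log2 ratio of CMT over IM of 0.00 (interval -0.09 to 0.09). ESR1, an estrogen receptor, stood at 30.2, 30.4 and 33.3 UQRPKM but rested on 25, 24 and 27 reads. Of the 17 measured receptors and cofactors, 2 were lower in CMT, which is 11.8% against 11.9% of all genes. None was higher, against 8.81% of all genes, and their median log2 ratio was -0.08, equal to that of all genes. The lower ones were GPER1, a membrane estrogen receptor, at 24.6, 26.9 and 10.4 UQRPKM in IM, CM and CMT (-1.24, interval -1.82 to -0.69), and NR3C2, the mineralocorticoid receptor, at 19.1, 13.2 and 12.2 (-0.65, interval -1.16 to -0.15).

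Steroid-metabolising enzymes were past 1.5-fold in 13.3% of members each way, against 8.81% higher and 11.9% lower over all genes. Of 15 measured, 2 were higher in CMT and 2 lower, with a median log2 ratio of -0.14. Those lower were both aldo-keto reductases, enzymes of a family that reduces ketosteroids among other substrates. AKR1C4 stood at 844 UQRPKM in IM, at 1075 in CM and at 238 in CMT, a log2 ratio of -1.83 (interval -1.96 to -1.70). AKR1CL1 stood at 1454, 1167 and 604 UQRPKM, a log2 ratio of -1.27 (interval -1.36 to -1.17). CMT thus held the lowest of the 3 values for both, with IM and CM closer to each other. Members of this family resemble each other in sequence, and how the authors shared reads among them is not given in the sources used here. HSD17B6, an enzyme that oxidises androgen metabolites, was higher at 25.1, 40.9 and 39.1 UQRPKM (0.64, interval 0.20 to 1.08). SULT2A1, which sulfates hydroxysteroids, fell outside the measured genes with 20, 54 and 1 reads in IM, CM and CMT.

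Genes known to respond to androgen or glucocorticoid in other tissues went both ways. Of 26 measured, 5 were higher in CMT, which is 19.2% against 8.81% of all genes, and 4 lower, 15.4% against 11.9%. The median log2 ratio was -0.11, which turned to 0.00 when the libraries were scaled to total reads. FKBP5, a cochaperone of steroid receptors that their ligands induce in many tissues, stood at 301 UQRPKM in IM, at 283 in CM and at 269 in CMT (-0.16, interval -0.26 to -0.06). TSC22D3, also called GILZ, stood at 1843, 1707 and 1710 UQRPKM (-0.11), and ZBTB16 at 265, 177 and 213 (-0.31). All of these lay within 1.5-fold of IM. GLUL, glutamine synthetase, stood at 14137 UQRPKM in IM, at 6069 in CM and at 12942 in CMT, so that CMT lay beside IM (-0.13, interval -0.16 to -0.10) and CM well below both. PCK1, which supplies glycerol for triglyceride in fat, had the same order of levels at 5402, 3377 and 5326 UQRPKM (-0.02, interval -0.05 to 0.01).

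The members that were higher included CEBPD, a transcription factor of early adipogenesis, at 568 UQRPKM in IM, at 591 in CM and at 909 in CMT (0.68, interval 0.58 to 0.78), and STEAP4, a metalloreductase, at 41.1, 58.1 and 74.9 (0.87, interval 0.50 to 1.24). KLF9, GADD45G and LCN2 were higher by log2 ratios of 0.60, 0.67 and 0.59. Those lower were DUSP1, a phosphatase that switches off MAP kinases, CEBPB, ADAMTS1 and SGK1, a kinase of sodium transport, with log2 ratios of -1.11, -0.86, -0.76 and -0.69. Their CM levels lay nearer to CMT than to IM for CEBPB, at 108, 69.7 and 59.9 UQRPKM in IM, CM and CMT, for ADAMTS1, at 91.8, 46.4 and 54.0, and for SGK1, at 619, 427 and 383.

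Fatty acid synthesis had the lowest median of the metabolic gene lists. Of 16 measured genes of de novo lipogenesis, 5 were lower in CMT, which is 31.2% against 11.9% of all genes. None was higher, against 8.81% of all genes. Among all genes with a mean level of at least 1000 UQRPKM, 1.92% were higher and 5.08% lower. Of the 16 genes, 15 had a log2 ratio below 0, with a median of -0.51 against -0.08 over all genes. ACLY, which splits citrate into the acetyl-CoA used for fatty acids, stood at 6272 UQRPKM in IM, at 3879 in CM and at 2007 in CMT, on 16318, 9618 and 5117 reads. Its log2 ratio of CMT over IM was -1.64 (interval -1.69 to -1.60), the lowest among the genes of the list. SCD, which puts a double bond into stearic acid, stood at 7188 UQRPKM in IM, at 9909 in CM and at 3308 in CMT (-1.12, interval -1.14 to -1.10). THRSP, a small protein that promotes lipogenesis, stood at 5704, 5330 and 2896 UQRPKM (-0.98, interval -1.03 to -0.92). CMT was the lowest of the 3 libraries for all of these genes, and for SCD the CM level was above that of IM.

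The acetyl-CoA carboxylases, which commit acetyl-CoA to fatty acids, followed with smaller ratios. ACACA stood at 1507 UQRPKM in IM, at 1467 in CM and at 962 in CMT (-0.65, interval -0.69 to -0.61), and ACACB at 25.3, 18.4 and 16.2 (-0.64, interval -0.91 to -0.38). MLXIPL, the carbohydrate-responsive factor ChREBP that drives this pathway, stood at 525, 471 and 364 UQRPKM (-0.53, interval -0.63 to -0.43), within 1.5-fold. FASN, fatty acid synthase itself, was much closer to IM at 10283, 9236 and 8276 UQRPKM (-0.31, interval -0.33 to -0.30). ME1, malic enzyme, which supplies NADPH, was the member above 0, at 912, 1127 and 1017 UQRPKM (0.16, interval 0.09 to 0.23). Scaled to total reads, 3 of the 16 genes stayed lower by 1.5-fold and the median was -0.40.

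**Figure D2:**
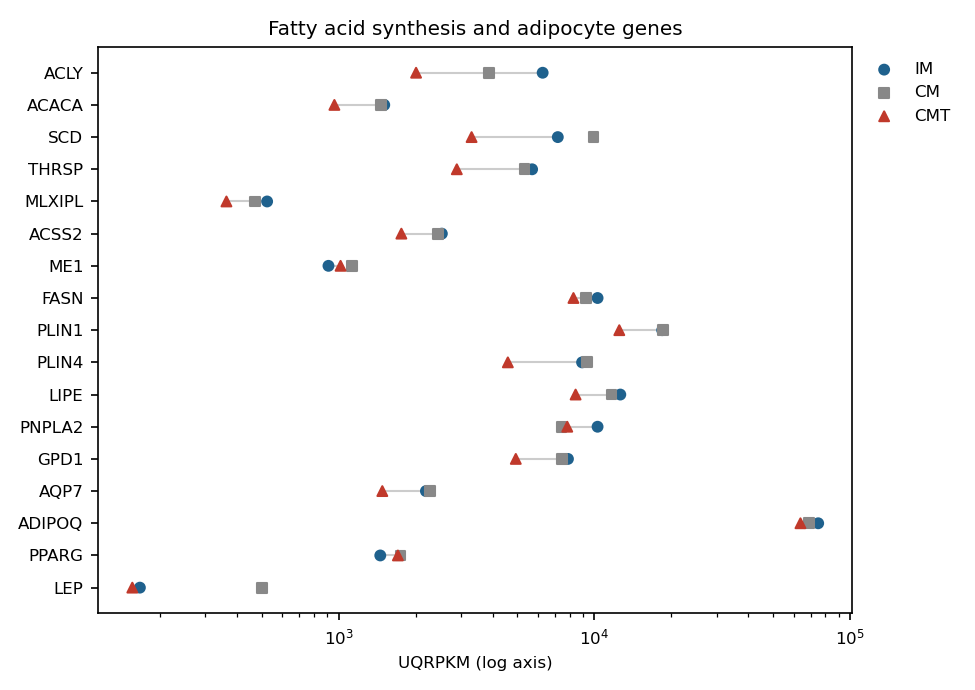
UQRPKM (horizontal log axis) of fatty acid synthesis and adipocyte genes in the IM, CM and CMT libraries, 1 point per library. ACLY runs from 6272 in IM to 2007 in CMT and PLIN4 from 8944 to 4585, whereas PPARG and ME1 lie at or above the IM level.

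Fat cell markers also had a median below that of all genes, by less. Of 14 measured adipocyte markers, 3 were lower in CMT, which is 21.4% against 11.9% of all genes. None was higher, against 8.81% of all genes, and the median log2 ratio was -0.32. The summed level of the markers was 170583 UQRPKM for IM, 164164 for CM and 135726 for CMT. PLIN4, a lipid droplet coat protein, stood at 8944, 9349 and 4585 UQRPKM (-0.96, interval -0.98 to -0.95), GPD1, which makes glycerol phosphate, at 7876, 7479 and 4925 (-0.68), and TUSC5, a protein of insulin-driven glucose uptake in fat, at 3199, 3010 and 2065 (-0.63). Just short of the limit lay LIPE, hormone-sensitive lipase, at 12618, 11667 and 8438 UQRPKM (-0.58), AQP7, a glycerol channel, at 2193, 2279 and 1481 (-0.57), and PLIN1 at -0.56. For all 6 of these genes IM and CM lay close together and CMT below both. Some other markers of the list lay closer to IM, though 12 of the 14 had ratios below 0. PPARG, the main adipogenic transcription factor, had a log2 ratio of 0.23 (interval 0.14 to 0.32), CEBPA one of -0.20, DGAT2 one of -0.02 and ADIPOQ one of -0.23. CIDEA and RETN, which are also on the list, were listed at 0 in every library. Scaled to total reads, PLIN4 alone of the 14 stayed lower by 1.5-fold and the median was -0.20.

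Leptin, the satiety hormone of fat cells, lay close to the intact level in CMT, with LEP at 167 UQRPKM in IM, at 502 in CM and at 156 in CMT on 558, 1600 and 511 reads (-0.10, interval -0.27 to 0.08). Among the other adipokines, a few lay apart from IM. SFRP5, a secreted Wnt inhibitor, stood at 1682 UQRPKM in IM, at 2628 in CM and at 938 in CMT (-0.84, interval -0.93 to -0.75), and APLN, the peptide apelin, at 79.8, 58.7 and 46.9 (-0.77, interval -1.12 to -0.42). Of 17 measured adipokines and receptors, 2 were higher, 4 lower and 11 within 1.5-fold. The shares were 11.8% higher and 23.5% lower, against 8.81% and 11.9% of all genes.

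Lipolysis, triglyceride assembly and beta-oxidation had 0%, 7.14% and 5.26% of measured genes higher in CMT, against 8.81% of all genes. The shares lower were 0%, 7.14% and 0%, against 11.9%. Among all genes with a mean level of at least 1000 UQRPKM, 1.92% were higher and 5.08% lower. None of the 13 measured lipolysis genes was past it in either direction, though 12 had ratios below 0 and their median was -0.28. Triglyceride assembly had 1 of 14 higher and 1 lower with a median of -0.29, which included AGPAT1 at 10109 UQRPKM in IM, at 9468 in CM and at 7050 in CMT (-0.52). Beta-oxidation had 1 of 19 higher, PPARA, its transcriptional regulator, at 37.1, 79.4 and 58.7 UQRPKM (0.66, interval 0.24 to 1.09). None of these 19 was lower, and their median was -0.03.

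Fatty acid uptake held 1 gene well above the intact level and 1 below it. FABP3, a fatty acid binding protein best known from muscle and heart, stood at 1917 UQRPKM in IM, at 8926 in CM and at 9268 in CMT, on 457, 2028 and 2165 reads, a log2 ratio of 2.27 (interval 2.13 to 2.42). The skeletal muscle markers without CA3 summed to 1189 UQRPKM for IM, 1110 for CM and 9882 for CMT, and their part in the FABP3 ratio was not tested. GPIHBP1, which holds lipoprotein lipase on the capillary wall, stood at 3398, 2865 and 1798 UQRPKM (-0.92, interval -1.0 to -0.84). The other 13 of 15 measured uptake genes lay within 1.5-fold, and the median was 0.01. The share past it was 6.67% each way, against 8.81% higher and 11.9% lower over all genes.

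Immediate early genes, which cells transcribe within minutes of a stimulus, were the pathway list with the lowest median. Of 19 measured, 14 were lower in CMT, which is 73.7% against 11.9% of all genes. None was higher, against 8.81% of all genes, and the median log2 ratio was -1.03. FOS, a subunit of the AP-1 transcription factor, stood at 493 UQRPKM in IM, at 552 in CM and at 174 in CMT, on 840, 896 and 291 reads (-1.50, interval -1.70 to -1.31). EGR1, a zinc finger factor of the same response, stood at 406, 363 and 148 UQRPKM (-1.46, interval -1.59 to -1.33). For both, IM and CM were close and CMT was lower. EGR2, EGR3 and IER2 had log2 ratios of -1.88, -2.13 and -1.36, JUNB one of -1.08 and KLF4 one of -1.03. MYC was alike in the libraries at 163, 150 and 175 UQRPKM (0.11, interval -0.06 to 0.27), and KLF6 and RHOB lay within 1.5-fold at -0.20 and -0.42. ZFP36, which encodes a protein that destabilises cytokine mRNA, was outside the measured genes with 316, 114 and 2 reads in IM, CM and CMT, and was named after its values were seen. Scaled to total reads, 11 of the 19 stayed lower and the median was -0.92. Erythroid markers, at 4641, 4281 and 2388 UQRPKM in sum, also had CMT as the lowest library, and the part of blood in these ratios was not tested.

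Interferon-stimulated genes, the antiviral genes that interferons switch on, had a median below that of all genes. Of 26 measured, 10 were lower, which is 38.5% against 11.9% of all genes. None was higher, against 8.81% of all genes. Another 16 lay within 1.5-fold, 24 of the 26 had ratios below 0, and the median was -0.42. CMPK2, a mitochondrial nucleotide kinase, stood at 205 UQRPKM in IM, at 168 in CM and at 101 in CMT (-1.02, interval -1.23 to -0.82). MX2, a dynamin-like antiviral GTPase, stood at 466, 311 and 241 UQRPKM (-0.95, interval -1.08 to -0.82), and OAS2, which makes the activator of ribonuclease L, at 635, 459 and 332 (-0.94, interval -1.03 to -0.84). CM lay between IM and CMT for these genes. OAS1 stood at 2836, 1434 and 1502 UQRPKM (-0.92, interval -1.0 to -0.83), so there CM and CMT were alike and IM stood above them. The IFIT genes and CXCL10 lay close to IM, with log2 ratios of -0.21 for IFIT1, -0.12 for IFIT2, -0.18 for IFIT3 and 0.05 for CXCL10. Scaled to total reads, 7 of the 26 stayed lower and the median was -0.31. ISG15 was listed at 0 in every library, as were 4 ribosomal protein genes, so a value of 0 in these data is not read as absence.

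**Figure D3:**
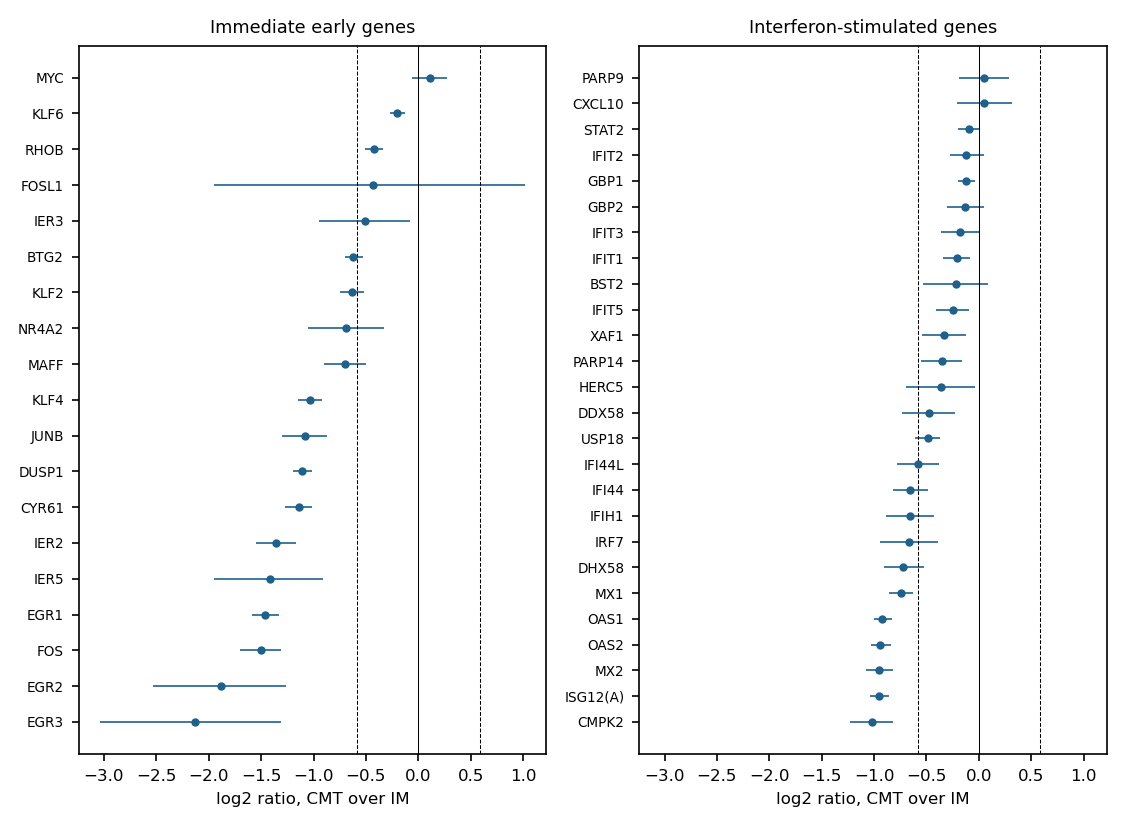
Log2 ratio of UQRPKM in CMT over IM (horizontal axis) for the measured immediate early genes (left) and interferon-stimulated genes (right), with exact 95% counting intervals as bars and dashed lines at 1.5-fold. On the left 14 of 19 genes and on the right 10 of 26 lie beyond the lower dashed line, and none lies beyond the upper one. Over all measured genes, 11.9% were lower and 8.81% higher.

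Cytokines and their receptors were mostly near or below the intact level, with 8 of 31 measured genes lower, 2 higher and a median of -0.28. The shares were 25.8% lower and 6.45% higher, against 11.9% and 8.81% of all genes. CCR2, the receptor that draws monocytes into tissue, stood at 26.7 UQRPKM in IM, at 13.2 in CM and at 9.81 in CMT (-1.45, interval -2.08 to -0.85). TNF, the inflammatory cytokine, stood at 58.0, 30.0 and 30.4 UQRPKM (-0.93, interval -1.36 to -0.52), and the chemokines CCL3L1 and CCL4 had ratios of -1.13 and -0.76. IM was thus the highest library for each of them. CXCL9, a chemokine for T cells, was higher at 59.7, 87.6 and 111 UQRPKM, on 40, 56 and 73 reads (0.90, interval 0.32 to 1.49), and CCL21, which guides lymphocytes and dendritic cells, at 275, 220 and 417 (0.60, interval 0.32 to 0.88). Macrophage markers held 2 lower of 20 measured and none higher, with a summed level of 10349 UQRPKM for IM, 9671 for CM and 8915 for CMT. CD163, a defining macrophage marker, was listed at 0 in every library.

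Most complement genes lay within 1.5-fold of IM, and C3 and CFB lay well above it. C3, the protein on which all complement pathways converge, stood at 308 UQRPKM in IM, at 1322 in CM and at 1365 in CMT, on 1277, 5220 and 5543 reads (2.15, interval 2.06 to 2.24). CFB, factor B of the alternative pathway, stood at 15.9, 166 and 102 UQRPKM (2.68, interval 2.28 to 3.10). In both genes IM was far below the castrated groups with and without testosterone. Of 18 measured complement genes, 3 were higher, which is 16.7% against 8.81% of all genes. None was lower, 15 lay within 1.5-fold, and the median was 0.31. C1QA and C1QC, which macrophages make, had log2 ratios of -0.51 and -0.39.

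Calprotectin genes, characteristic of neutrophils, lay between the intact and the castrated level. S100A9 stood at 85.6 UQRPKM in IM, at 1157 in CM and at 229 in CMT (1.42, interval 1.05 to 1.81) and S100A8 at 90.4, 1272 and 193 (1.10, interval 0.61 to 1.60). CMT was thus well below CM and still above IM. S100A12 had the same order at 323, 2449 and 537 UQRPKM (0.74, interval 0.46 to 1.02), and so had LCN2, lipocalin 2, at 309, 770 and 467 (0.59, interval 0.45 to 0.74). They were 4 of 7 measured neutrophil markers, so 57.1% were higher, against 8.81% of all genes. None of the 7 was lower, against 11.9% of all genes. CXCR2, a chemokine receptor on neutrophils, stood at 5.08, 4.69 and 4.35 UQRPKM, and the list summed to 822, 5661 and 1442. The part of neutrophils in these ratios was not tested.

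Skeletal muscle genes had the highest median of the 48 gene lists. ACTA1, the actin of skeletal muscle fibres, stood at 49.8 UQRPKM in IM, at 39.8 in CM and at 3589 in CMT, on 130, 99 and 9176 reads (6.17, interval 5.92 to 6.43). TNNT1, troponin T of slow fibres, stood at 3.36, 2.82 and 371 UQRPKM (6.78, interval 5.55 to 8.41), and MYH7, the slow myosin heavy chain, at 2.46, 2.0 and 117 (5.57, interval 4.97 to 6.25). MYH1, a fast myosin heavy chain, stood at 3.18, 1.91 and 242 UQRPKM (6.25, interval 5.20 to 7.57). Genes of slow and of fast fibres were thus both high in CMT and near the low end of the measured range in IM and CM. The median log2 ratio of the 19 markers without CA3 was 4.82. Muscle forms of glycolytic enzymes had ratios of the same order, with ENO3 at 50.3, 53.9 and 770 UQRPKM (3.94) and PGAM2 at 12.3, 2.59 and 235 (4.25), while the median of the 23 measured glycolysis genes was -0.09. SLN and MYOM2, also genes of striated muscle, had 150 and 106 reads in CMT, 2 each in CM, and were listed at 0 in IM.

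CA3, a carbonic anhydrase of muscle that fat expresses as well, went against its list at 17481 UQRPKM in IM, at 20443 in CM and at 7984 in CMT (-1.13, interval -1.15 to -1.11). Heart and smooth muscle markers had 5 of 11 lower and 3 higher, the latter being MYH6, TNNI3 and DES of striated muscle. The shares were 45.5% lower and 27.3% higher, against 11.9% and 8.81% of all genes. ACTA2, smooth muscle actin, stood at 2643, 1800 and 1654 UQRPKM (-0.68, interval -0.74 to -0.61) and SMTN, smoothelin, at 773, 511 and 431 (-0.84, interval -0.92 to -0.77), with CM near CMT in both.

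Mesothelial genes had the highest median of the gene lists after skeletal muscle. Of 7 measured, 6 were higher in CMT, which is 85.7% against 8.81% of all genes, and 1 lower, 14.3% against 11.9%. The list had a median of 2.58 and a summed level of 126 UQRPKM for IM, 241 for CM and 564 for CMT. MSLN, mesothelin, stood at 6.47, 15.4 and 59.5 UQRPKM (3.20, interval 2.43 to 4.08), and UPK3B, a uroplakin found in mesothelium, at 4.93, 27.4 and 46.4 (3.23, interval 2.77 to 3.74). UPK1B, another uroplakin, stood at 2.58, 29.4 and 54.2 UQRPKM (4.39, interval 3.31 to 5.73) and WT1, a transcription factor of mesothelium, at 29.5, 33.1 and 67.3 (1.19, interval 0.84 to 1.55). CMT was the highest and IM the lowest library for each. KRT18, a keratin of simple epithelia, was the one below IM at 28.7, 26.7 and 14.4 UQRPKM (-1.0, interval -1.73 to -0.30), whereas its partner KRT8 stood at 51.2, 102 and 307 (2.58, interval 2.34 to 2.83). PRG4, lubricin, which coats joints and serous surfaces, had a like order at 1.63, 13.1 and 37.1 UQRPKM (4.51, interval 3.50 to 5.74). C3 and CFB, described above, also had IM as the lowest library, and the part of mesothelium in their ratios was not tested.

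Keratins of stratified epithelium were highest in the IM library. KRT14, of the basal layer, stood at 51.2 UQRPKM in IM, at 0 in CM and at 1.27 in CMT on 123, 0 and 3 reads (-5.33, interval -7.63 to -3.75), and KRT5, its partner, at 34.8, 0 and 1.48. KRT10, of the layers above, stood at 63.7, 19.4 and 15.3 UQRPKM (-2.06, interval -2.52 to -1.62). KRT1 was outside the measured genes with 111, 2 and 1 reads in IM, CM and CMT. Of 8 measured members of this list, 5 were lower and 2 higher, KRT8 and DSP, a desmosome protein. In the 4 keratins named first, IM stood apart from both castrated groups.

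Erythroid markers were lower in CMT, as were 21.4% of endothelial and 22.7% of lymphocyte markers, against 11.9% of all genes. The shares higher were 7.14% for endothelial and 9.09% for lymphocyte markers, against 8.81% of all genes. All 4 measured erythroid genes were lower, led by HBB, the beta chain of haemoglobin, at 4534 UQRPKM in IM, at 4193 in CM and at 2331 in CMT (-0.96, interval -1.05 to -0.88), and the list summed to 4641, 4281 and 2388. Endothelial markers had 3 of 14 lower, 1 higher and 10 within 1.5-fold, with a median of -0.33. ESAM, an adhesion molecule of endothelial junctions, stood at 530, 250 and 291 UQRPKM (-0.86, interval -0.99 to -0.74) and ROBO4, a receptor that stabilises vessels, at 749, 530 and 419 (-0.84, interval -0.91 to -0.76). PECAM1 went against these at 4338, 4038 and 4735 UQRPKM (0.13, interval 0.10 to 0.15). NOS3, the endothelial nitric oxide synthase, stood at 507, 377 and 316 UQRPKM (-0.68, interval -0.77 to -0.60). Lymphocyte markers had 5 of 22 lower, 2 higher and 15 within 1.5-fold. GZMH, a granzyme of cytotoxic lymphocytes, stood at 62.2, 6.39 and 4.83 UQRPKM on 92, 9 and 7 reads (-3.69, interval -5.04 to -2.59), whereas CD3G, of the T cell receptor complex, stood at 34.0, 38.9 and 53.0 (0.64, interval 0.13 to 1.16).

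Matrix genes differed member by member. COL1A1, a chain of collagen I, stood at 4453 UQRPKM in IM, at 2235 in CM and at 2580 in CMT (-0.79, interval -0.83 to -0.74), so CMT lay with CM. COL8A1 and COL8A2, chains of the network-forming collagen VIII, were higher at log2 ratios of 1.24 and 2.40, and COL14A1, which binds collagen fibrils, at 0.62. Of 20 measured collagens 4 were higher, 2 lower, and the median was -0.14. POSTN, periostin, stood at 546, 530 and 984 UQRPKM (0.85, interval 0.78 to 0.92) and THBS1, thrombospondin that activates TGF-beta, at 257, 195 and 469 (0.87, interval 0.79 to 0.94). IGFBP3, the main carrier of IGF1 in blood, stood at 1072, 1005 and 1962 UQRPKM (0.87, interval 0.77 to 0.97). CMT was the highest of the libraries for each, and IM and CM were alike for POSTN and IGFBP3. In the insulin and IGF list as a whole, 1 of 22 was higher, 1 was lower and the median was -0.21. The share was 4.55% each way, against 8.81% higher and 11.9% lower over all genes.

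Ribosomal protein genes were shifted slightly upward, with 46 of 51 measured members above 0 and a median of 0.19. Of them 2 were higher by 1.5-fold, 3.92% against 8.81% of all genes, and 1 lower, 1.96% against 11.9%. RPL31 stood at 5087 UQRPKM in IM, at 11691 in CM and at 11764 in CMT (1.21) and RPS27 at 28492, 33091 and 45106 (0.66). Such genes have many near-identical pseudogenes, so the reads on a single member are uncertain. They are also short, and the part of length in this shift was not tested. The median log2 ratio over all genes was 0.03 for recovered lengths under 500 bases. It was -0.04 from 500 to below 1000 bases and -0.11 from 6000 bases upward.

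**Figure D4:**
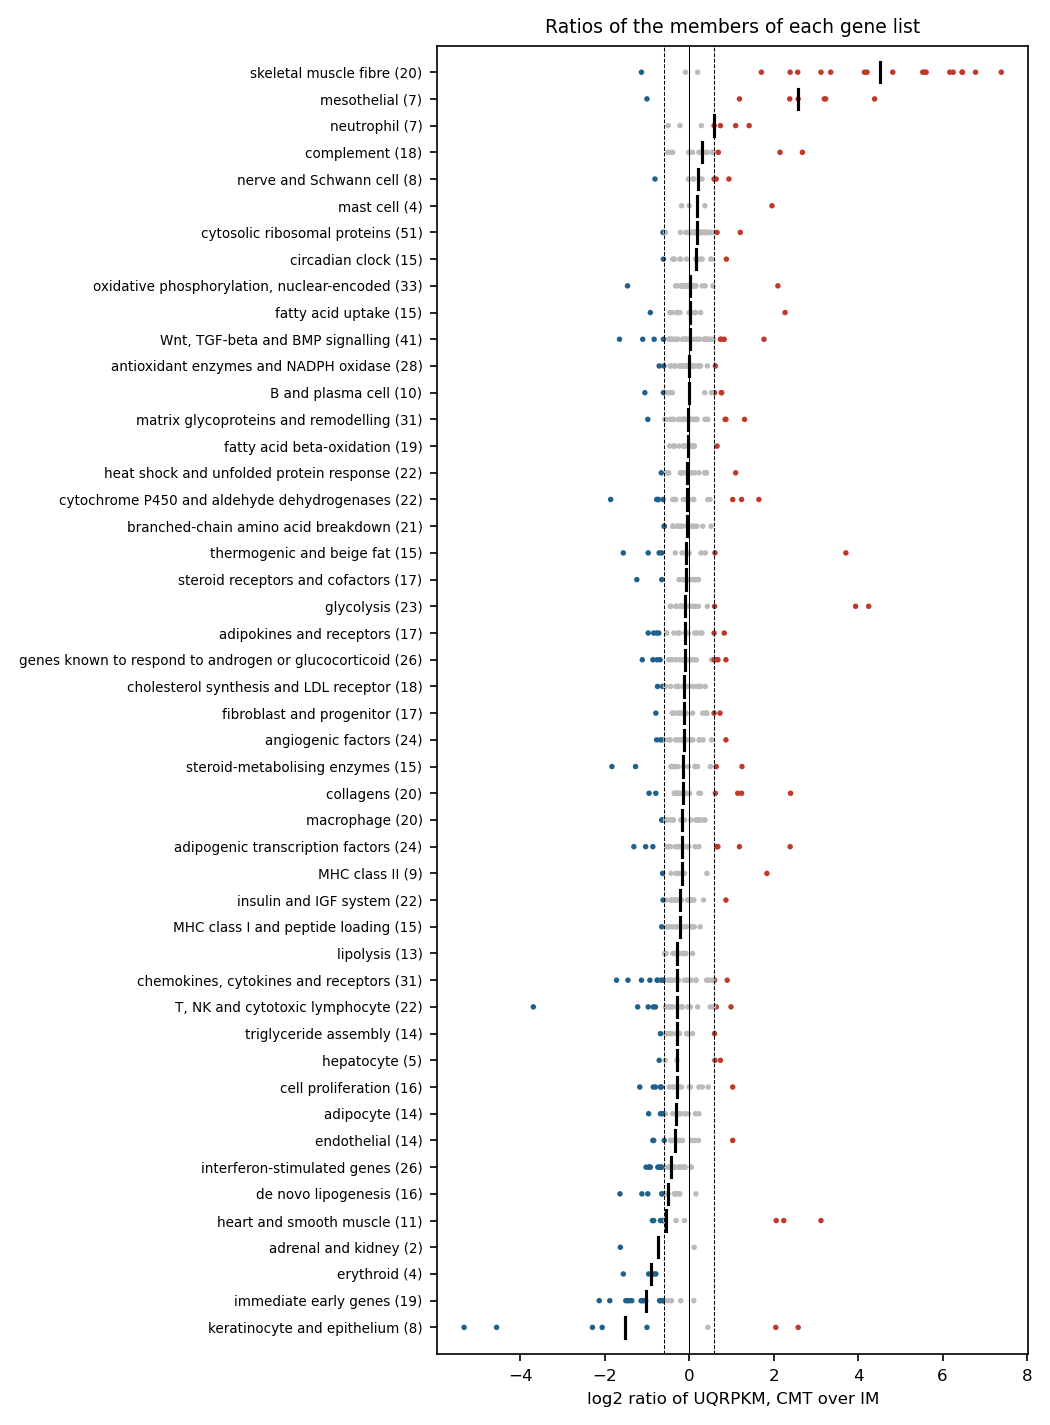
Log2 ratio of UQRPKM in CMT over IM (horizontal axis) for the measured members of 48 gene lists, 1 row per list with the number of measured members in brackets, red and blue points beyond the dashed 1.5-fold lines and a black bar at the median. Skeletal muscle and mesothelial genes lie to the right with medians of 4.52 and 2.58, and immediate early genes to the left with a median of -1.03.

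Ranked by the interval bound nearest to equal levels, 10 of the 15 genes highest in CMT over IM were on the skeletal muscle list. The others were ENO3, PGAM2 and PRG4, described above, KLHL41, a protein of the muscle sarcomere, and LOC100737797, which has no symbol in RefSeq, at 2.28 UQRPKM in IM, at 0.479 in CM and at 65.3 in CMT. The 15 lowest were more mixed. Apart from KRT14, KRT5 and GZMH, they included GYS2, glycogen synthase of liver and fat, at 80.7, 44.3 and 15 UQRPKM (-2.43, interval -2.86 to -2.02), and ELP5, a subunit of the Elongator complex that modifies transfer RNA, at 76.6, 50.4 and 5.98 (-3.68, interval -4.54 to -2.92). CM lay between IM and CMT for GYS2 and ELP5. The remaining 10 carried only LOC numbers in the deposited values, among them OARD1, deposited as LOC100518497, at 22.2, 3.25 and 1.72 UQRPKM.

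**Figure D5:**
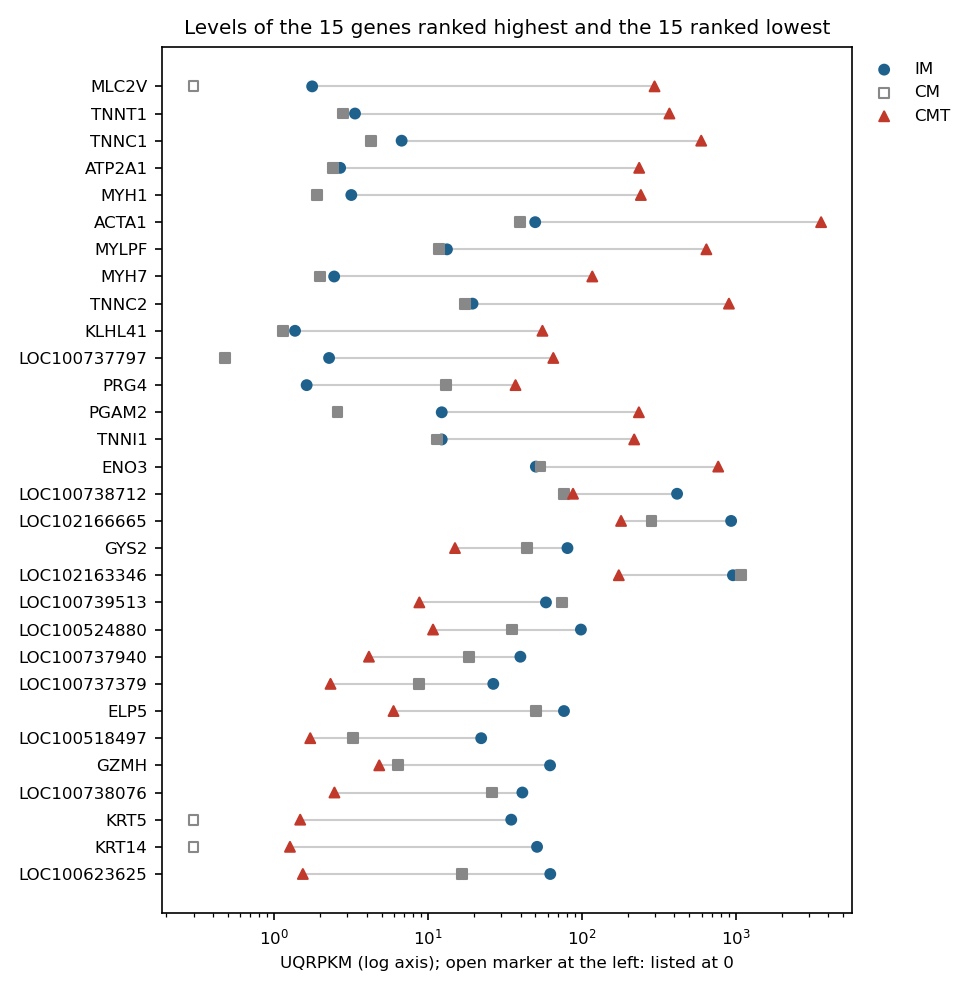
UQRPKM (horizontal log axis) in the IM, CM and CMT libraries of the 15 genes ranked highest and the 15 ranked lowest in CMT over IM, joined by a grey line between IM and CMT, with an open marker at the left edge for a value of 0. The CMT values of the upper genes reach 3589 for ACTA1, against 49.8 in IM and 39.8 in CM.

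Among the 962 abundant genes, with at least 1000 UQRPKM in IM or CMT, 21 were higher, 54 lower and the median was -0.10. The most separated on the lower side were ACLY, AKR1CL1, CA3, SCD and DUSP1, and on the higher side ACTA1, FABP3, C3, RPL31 and LOC100514795, which RefSeq names RPL23A, at 2900 UQRPKM in IM, at 6548 in CM and at 8397 in CMT (1.53). STAT5A, which carries growth hormone signals in fat, stood at 309, 193 and 125 UQRPKM (-1.31, interval -1.56 to -1.07). GPX3, a secreted glutathione peroxidase, stood at 26408, 11852 and 17380 UQRPKM (-0.60, interval -0.62 to -0.59), with CMT between CM and IM. Genes at 0 in CMT with the most reads in IM were LOC100737949 with 133 reads in IM and 3 in CM, LOC100625180 with 74 and 0, and PRG3, an eosinophil granule protein, with 64 and 0.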

How the data were processed

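Each group was 1 library of pooled RNA, made with an Ion total RNA kit and read as single ends on an Ion Proton. Per the paper's methods, the authors removed adaptor and low-quality reads and mapped the rest to Sscrofa10.2 with MapSplice. Not given in the sources used here are the annotation, the counting tool and the treatment of multiply mapped reads. The authors deposited UQRPKM values, a modified RPKM in which the library's upper quartile takes the place of its total reads. Libraries were assigned by their titles.

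From the deposited RPKM values, whole reads were recovered with upper quartiles of 149, 142 and 146 for IM, CM and CMT and the shortest fitting length up to 120000 bases. Whole reads were found for all 20838 genes above 0, to a relative error of at most 7.65e-09, and can be too low by a common factor. Recovered reads on all genes came to 16611931, 15561124 and 15106608. At the median recovered length of 1973 bases, 3 reads correspond to 1.02 UQRPKM in IM and 1.04 in CMT. Reads gave the intervals, and UQRPKM gave the ratios, without a pseudocount. No test was run, because a side holds 1 library. The calculation was tested on simulated data. Python 3.11.15, numpy 2.4.6, pandas 2.3.3, scipy 1.17.1 and matplotlib 3.10.9 were used.

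The thresholds of 1.5-fold and 1 UQRPKM follow the study, without its test. The 48 gene lists, 16 of cell type markers and 32 of pathways, hold 1176 symbols, of which 972 were found as mRNA genes. The comparison and the lists were chosen with earlier results of these data known. Genes were named by a rule: the 15 higher and 15 lower with the interval bound farthest from equal levels, the 5 each way with the largest ratio among abundant genes, the 3 each way with the most reads opposite a value of 0, up to 4 members of each list in each direction, and any member of the lists of steroid receptors and of androgen or glucocorticoid response. Some other list members are given as examples, as are LEP, PCK1 and GPX3, and were chosen after their values were seen. Symbols for LOC numbers came from a RefSeq table of Sscrofa11.1, which matched 17137 of the 22826 mRNA genes. No coordinates are given, because that assembly is not the one used for mapping. A planned search of promoters for hormone response motifs was not run, since no promoter sequences were at hand. Alternatives were other scalings, a pseudocount, filters on low values, a 2-fold threshold, all gene types and intervals that exclude equal levels.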

Additional observations from a re-analysis of the deposited data

Results flagged for a closer look

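Genes not classed as mRNA were outside the comparison, and some of them lay above or below the IM level in CMT. Of 1642 miscRNA genes with at least 1 UQRPKM in both, 25 had a whole counting interval beyond 1.5-fold on the higher side and 47 on the lower side, and of 735 ncRNA genes 10 and 11. Of the 14151 mRNA genes, 241 and 327 had such an interval, which is 1.70% and 2.31%. Genes are named here from the higher side only. The 5 with the interval farthest above equal levels were all miscRNA genes named by a LOC number. LOC102162793 had a log2 ratio of 3.86, at 11.8 UQRPKM in IM, at 47.6 in CM and at 172 in CMT. The log2 ratios of the others were 3.42 for LOC102158683, 4.55 for LOC100738318, 2.64 for LOC102167052 and 2.33 for LOC102164161. Each of the 5 had its highest level in CMT, and each rests on 1 library a side.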

How the results depend on the processing

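Over all genes, 1246 higher and 1690 lower genes became 529 and 894 where both libraries had to reach 10 UQRPKM, and 560 and 602 at 2-fold. Requiring an interval without equal levels left 745 higher and 1161 lower. Under the other 9 settings these counts stayed within 1.5 times, including 1202 and 1656 without the cell type marker genes, an alternative chosen after seeing the data. The median log2 ratio of -0.08 became -0.03 with total UQRPKM, 0.04 with total reads on mRNA genes, 0.00 with the median ratio and 0.04 with total reads without skeletal muscle genes. Genes with whole intervals beyond 1.5-fold numbered 138 higher with at least 10 UQRPKM in both, against 241, and 217 lower under both scalings to total reads, against 327. These moves follow from the construction of each setting, which drops genes or adds a constant. With total reads, 23 of the 165 named genes past 1.5-fold were no longer past it, and 13 others came to be. Those 165 genes could not turn direction under the 8 settings that recompute or filter ratios, so their unchanged direction says nothing about stability. The scalings added at most 0.11, the filters left ratios unchanged, and a pseudocount cannot change a sign. Of 326 named genes with a ratio, 281 passed the filter of 10 UQRPKM in both. No paired analysis was possible because each group is 1 library, and no replicate could be left out. Depth limits the genes with few reads, where the interval of a 1.5-fold ratio often includes equal levels, and no setting measures the spread between pigs.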

Other observations

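Several further lists had members past 1.5-fold that the report does not describe. Over all genes, 8.81% were higher and 11.9% lower. Cell proliferation genes had 5 of 16 measured members lower in CMT, 31.2%, and 1 higher, 6.25%, with a median log2 ratio of -0.29. MCM2, a subunit of the replicative helicase, stood at 31.1 UQRPKM in IM, at 34.5 in CM and at 13.9 in CMT (-1.17, 95% interval -1.60 to -0.75). MHC class I genes had 1 of 15 lower, 6.67%, and none higher, so both shares lay under those of all genes. The lower gene was SLA-1, at 13658, 11205 and 8676 UQRPKM (-0.65, interval -0.68 to -0.63), a gene whose near relatives can share its reads.

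Thermogenic and beige fat genes had 4 of 15 lower, 26.7% against 11.9% of all genes, and 2 higher, 13.3% against 8.81%. UCP3, a mitochondrial carrier, stood at 1941 UQRPKM in IM, at 2332 in CM and at 1240 in CMT (-0.65, interval -0.70 to -0.59). Clock genes had 1 of 15 lower and 1 higher, 6.67% each way, which is under both shares of all genes. The lower gene was PER2 at 54.5, 41.9 and 35.6 UQRPKM (-0.61, interval -0.93 to -0.31). The higher was CLOCK, at 26.5, 29.2 and 48.8 (0.88, interval 0.40 to 1.38). Among 22 cytochrome P450 and aldehyde dehydrogenase genes, 5 were lower, all of them aldehyde dehydrogenases, and 3 were higher, all of them cytochromes. Their shares were 22.7% lower and 13.6% higher, against 11.9% and 8.81% of all genes. ALDH1A2, which makes retinoic acid, stood at 488, 267 and 286 UQRPKM (-0.77, interval -0.93 to -0.61).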
